A study of Mus musculus with 12 samples.

Results

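The 10 genes described here encode the main chaperones and proteases of the mitochondrion. They are the matrix chaperones Hspd1, Hspe1 and Hspa9, the matrix proteases Lonp1, Clpp and Clpx, the inner membrane proteases Yme1l1, Afg3l2 and Spg7, and the intermembrane space protease Htra2. They were chosen by symbol, and each symbol matched 1 of the 38924 genes in the deposited tables. All 10 were among the 17980 genes tested. RNA was taken from whole spinal cord of 12 mice aged 8 weeks on a mixed B6J and CAST background. Of these, 6 were wild type (WT females 1, 2 and 10, and WT males 5, 11 and 12) and 6 were heterozygous for the P278KY allele of Gars (females 3, 4 and 9, and males 6, 7 and 8), where the numbers are those of the mouse labels. Gars encodes glycyl-tRNA synthetase, which charges tRNA with glycine, and dominant mutations in it cause Charcot-Marie-Tooth neuropathy. The allele is carried in every cell, and each library holds RNA of all cell types of the tissue.

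Most mitochondrial proteins are made in the cytosol, enter unfolded and are folded in the matrix by mtHSP70 (Hspa9) and by the HSP60 and HSP10 chaperonin (Hspd1 and Hspe1). Proteins that fail to fold are degraded by LONP1 and CLPXP in the matrix, by the m-AAA and i-AAA proteases in the inner membrane and by HTRA2 in the intermembrane space. In the mitochondrial unfolded protein response, misfolding inside the organelle raises transcription of these chaperones and proteases, and the transcription factors ATF5, ATF4 and CHOP (Ddit3) have been linked to it in mammals. In neurons, loss of m-AAA subunits is known for axonal disease, as in the spastic paraplegia caused by mutations of SPG7.

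Hspd1 and Hspe1 lie head to head on chromosome 1 and share their promoter region, which is shown because the ratio of the 2 transcripts is examined below. RefSeq promoter windows (GRCm38.p6), each of 300 bases with 250 before the start, were found for 7 of the 10 members. The heat shock element, in which GAA and its complement TTC alternate, is the site of the heat shock factor HSF1. A run of 3 such units was searched on both strands and was found in the windows of Hspd1 and Hspe1, against 0.603% of all 32851 windows. Both windows hold the same site, at chr1:55088053-55088082 on the plus strand. The capitals mark the 18 bases covered by 2 overlapping matches, 89 to 72 bases before the RefSeq start of Hspe1. In GENCODE M21 the site lies before the main Hspd1 transcript and inside the noncoding first exon of other Hspd1 transcripts that start farther upstream.
Hspd1 and Hspe1 shared site: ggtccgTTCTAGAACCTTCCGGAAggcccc

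The element TTGCATCA, a composite of C/EBP and ATF4 sites that is typical of targets of ATF4, was in 0 of the 7 member windows and in 0.895% of all windows. Among the stress signalling and one-carbon genes that serve below as comparison, it was in 1 of 10 and 1 of 6 windows, so most of these lack it as well. The 2 that hold it, shown for the letters themselves, are Fgf21 (chr7:45615611-45615640, minus strand) and Pycr1 (chr11:120643833-120643862, minus strand), with the element in capitals, for Pycr1 as its reverse complement.
Fgf21: agacccccccaTTGCATCAtccgtccaggc
Pycr1: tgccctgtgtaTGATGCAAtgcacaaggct

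The looser form TGATGNAAT, the cyclic AMP response element TGACGTCA, the NRF1 element and the ERR element TCAAGGTCA were each in 0 of the 7 member windows, against 0.965%, 1.79%, 0.971% and 0.423% of all windows. A match describes only the letters in this window.

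The libraries held 26982140 to 39339999 expected counts. Gars itself was measured as CPM (counts scaled to the size of the library), at 129 ± 6.52 in WT mice and at 141 ± 2.95 in P278KY mice (SD, n = 6 each; log2 change 0.13, adjusted p = 0.0460 by edgeR), which measures both alleles together and does not read the mutation. Libraries differed in markers of other tissues. Mice 1 to 4 stood apart in skeletal muscle markers, whose mean log2 CPM lay between 6.19 and 9.02 there and between 1.97 and 4.12 in the other 8. Sensory ganglion markers were at 3.04, 2.40 and 2.05 in mice 7, 10 and 11 and between -0.32 and 0.17 in the others. Schwann cell markers were at 7.03 to 7.60 in WT and 5.69 to 6.88 in P278KY, and motor neuron markers at 4.53 to 5.16 and 4.17 to 4.37. Astrocyte markers were at 8.75 to 8.88 in WT and 8.88 to 9.05 in P278KY, and of these 6 genes only the glutamate transporter gene Slc1a3 passed (log2 change 0.37, adjusted p = 6.4e-05 by edgeR). Markers of meningeal fibroblasts were at 5.74 to 7.06 and 5.27 to 5.92, with 5 of 5 lower by sign and only Lum called (-0.74, adjusted p = 0.0416 by edgeR). With muscle and ganglion levels as covariates, 0 members and 782 of all genes were called for genotype, and 5 genes of the stress list and 3 of the one-carbon list described below. Values without mice 1 to 4 or without mice 7, 10 and 11 are given beside the results they touch. The part of the Schwann cell, motor neuron, astrocyte and fibroblast differences was not tested. Fewer cells of a type and less RNA per cell cannot be told apart in these data.

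None of the 10 transcripts passed edgeR's test for genotype. The question of the comparison is whether adult mutant cord carries the transcript signature of mitochondrial protein stress. By edgeR's quasi-likelihood test with Benjamini-Hochberg adjustment, 0 of 10 members were called, against 5.32% of all tested genes (956), with 2.36% higher and 2.95% lower in P278KY. DESeq2's Wald test called 1, Hspa9, against 8.99% of all genes. At an unadjusted p under 0.05 there was 1 by either tool, also Hspa9, against 3637 (edgeR) and 3596 (DESeq2) of all 17980 genes. The median log2 change of the members was 0.0086, beside -0.0031 over all tested genes, with 7 members higher and 3 lower by sign. The genotypes did not overlap in CPM for 0 members, against 3.73% of all genes. The 95% interval of every member lay between 20% lower and 25% higher, a limit chosen after the values were seen, as did those of 58.1% of all tested genes and 89.5% of the 8161 genes at least as abundant as Htra2, the lowest member.

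**Figure D1:**
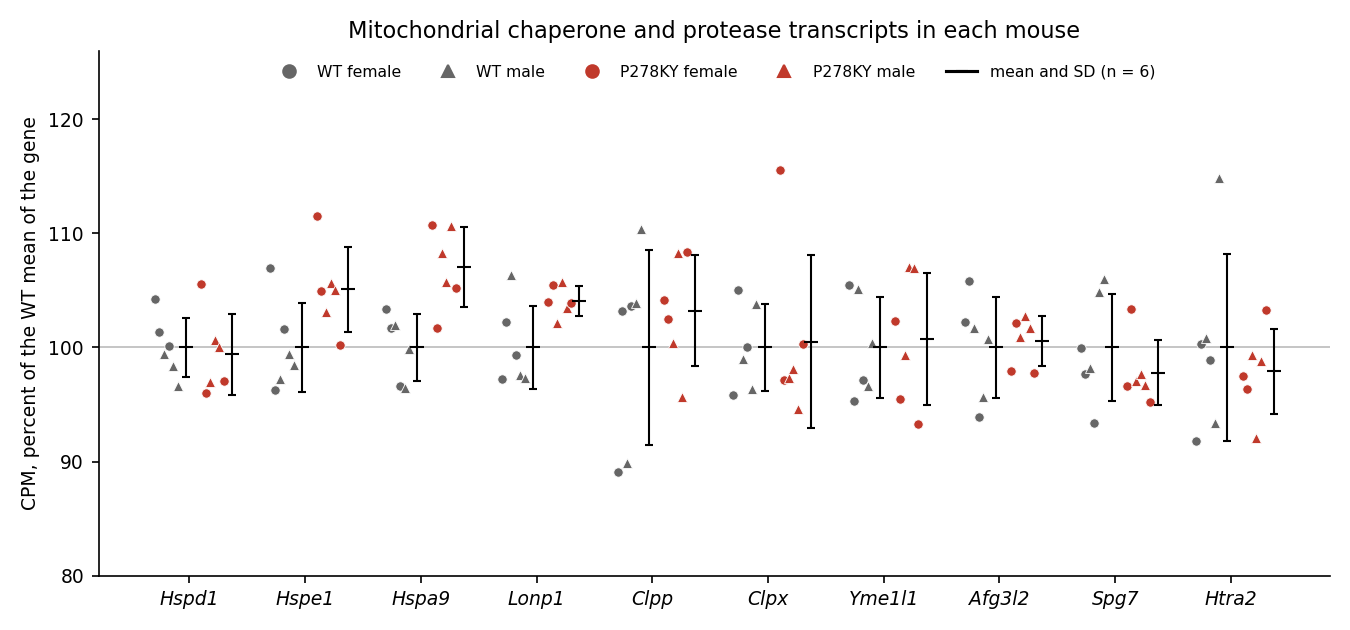
CPM of each member in each of the 12 mice, as a percent of the WT mean of that gene (vertical axis), with WT in grey and P278KY in red, females as circles and males as triangles, and the mean with SD in black. The groups overlap for every gene, and Hspa9 shows the most separation, with 5 of 6 P278KY mice above the highest WT mouse.

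The members were measured with little spread. A member had 524 to 9610 counts in a library. At the median count of each member, counting error alone gives a coefficient of variation (CV) of 1.2% to 4.05%. The CV between mice within groups was 2.97% to 7.42%, with a median of 3.8% over the members. It was below 5.24%, the median of the genes at least as abundant, for 7 of them.

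Levels per transcript length, in TPM (counts scaled by transcript length and library), fell into tiers. The 3 matrix chaperones were the most abundant, with means over 12 mice of 154 TPM for Hspd1, 153 TPM for Hspa9 and 144 TPM for Hspe1, and their ranges overlapped. Lonp1 (54.1 TPM), Afg3l2 (51.5 TPM), Spg7 (49.4 TPM) and Clpp (45.8 TPM) formed the next tier with overlapping ranges, and the lowest chaperone value, 132.7 TPM for Hspe1, lay above the highest of these, 58.6 TPM for Lonp1. Yme1l1 (34.5 TPM) followed, and its highest mouse (39.9 TPM) reached into the range of Clpp, which began at 38.9 TPM. Htra2 (27.2 TPM) and Clpx (25.7 TPM) were lowest, with overlapping ranges that did not reach the lowest Yme1l1 value (32.0 TPM). In each mouse the 10 transcripts summed to between 694.7 and 791.5 TPM.

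**Figure D2:**
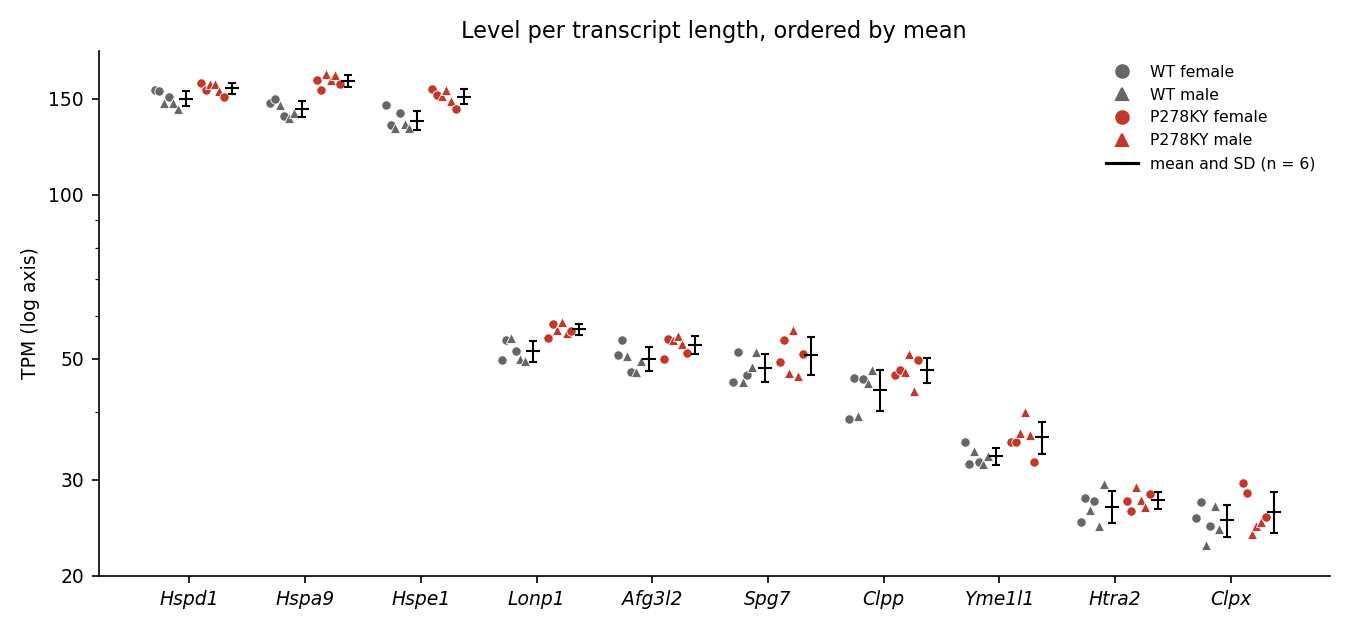
TPM of each member in each mouse on a log axis, ordered by the mean over 12 mice, with colours, symbols and bars as for the CPM values. The 3 chaperones lie above every value of the 7 proteases or protease subunits.

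Among the matrix chaperones, Hspa9 came nearest to a genotype difference. Hspa9 encodes mortalin, the mitochondrial HSP70 that pulls precursors through the import channel and folds them, and lies at chr18:34937414-34954357. It was at 228.3, 224.7 and 213.4 CPM in WT females 1, 2 and 10 and at 225.3, 212.9 and 220.5 CPM in WT males 5, 11 and 12. In P278KY it was at 244.5, 224.7 and 232.5 CPM in females 3, 4 and 9 and at 239.2, 233.6 and 244.3 CPM in males 6, 7 and 8. All mutants but female 4 were above the highest WT mouse. The means were 220.9 ± 6.45 and 236.5 ± 7.71 CPM (SD, n = 6 each), a 1.07-fold difference and a log2 change of 0.10 (SE 0.030, 95% interval 0.03 to 0.16). The adjusted p was 0.0803 by edgeR, with an unadjusted p of 0.00626, and 0.0171 by DESeq2. Without WT female 1 edgeR gave 0.0385 (7.6% of all genes called), and over all settings run the adjusted p ranged from 0.0085 to 0.374, so the call depends on the setting.

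Hspd1, the HSP60 ring in which proteins fold (chr1:55077835-55088243, minus strand), differed little between genotypes. It was at 163.6, 168.9 and 176.5 CPM (lowest, median, highest) in WT and at 162.7, 167.0 and 178.8 CPM in P278KY, so the groups covered nearly the same range. The log2 change was -0.01 (SE 0.029, 95% interval -0.07 to 0.05, adjusted p = 0.911 by edgeR). Its cofactor Hspe1, the HSP10 lid of that ring (chr1:55088132-55091307, plus strand), was at 45.1, 46.3 and 50.1 CPM in WT and at 46.9, 49.2 and 52.2 CPM in P278KY. All 6 mutants were above the WT median and 1 was above the highest WT mouse, WT female 1. The log2 change of 0.07 (SE 0.035) did not pass (adjusted p = 0.281 by edgeR). Rows for 6 pseudogene copies of Hspe1 and Hspa9 held at most 5 counts in a mouse.

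The matrix proteases did not pass either. Lonp1, which degrades damaged matrix proteins (chr17:56614297-56626887), was at 76.2, 77.2 and 83.3 CPM in WT and at 80.1, 81.5 and 82.9 CPM in P278KY. All 6 mutants were above the WT median, but none exceeded WT male 5, the highest WT mouse. Its log2 change was 0.06 (SE 0.029, 95% interval -0.005 to 0.12, adjusted p = 0.287 by edgeR). Clpp, the proteolytic chamber of CLPXP (chr17:56990305-56996188), averaged 25.1 ± 2.15 CPM in WT mice and 25.9 ± 1.22 CPM in mutants. Clpx, the unfoldase that feeds it (chr9:65294260-65330658), was at 33.6 ± 1.27 and 33.8 ± 2.55 CPM (SD, n = 6 each for both). Their log2 changes were 0.05 (SE 0.058) and 0.01 (SE 0.047). The wider mutant spread of Clpx came from P278KY female 3, at 38.9 CPM against 31.8 to 33.7 CPM in the other mutants.

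The proteases of the inner membrane and intermembrane space had log2 changes between -0.03 and 0.01. Yme1l1, the i-AAA protease that faces the intermembrane space and cleaves OPA1 (chr2:23156369-23199260), averaged 73.2 ± 3.24 CPM in WT mice and 73.7 ± 4.22 CPM in mutants. Afg3l2, the catalytic m-AAA subunit that faces the matrix (chr18:67404764-67449172), was at 79.2 ± 3.50 and 79.6 ± 1.73 CPM. Spg7, its partner paraplegin (chr8:123062942-123097760), was at 50.9 ± 2.40 and 49.8 ± 1.46 CPM. Htra2, a serine protease released into the cytosol during apoptosis (chr6:83051266-83055273, minus strand), was at 20.5 ± 1.67 and 20.1 ± 0.764 CPM (SD, n = 6 each for these 4 genes). The adjusted p values by edgeR were 0.925, 0.932, 0.689 and 0.814 in that order. Htra2 overlaps Aup1 on the opposite strand, so reads of the shared stretch could be assigned to either gene if the counting did not use the strand.

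**Figure D3:**
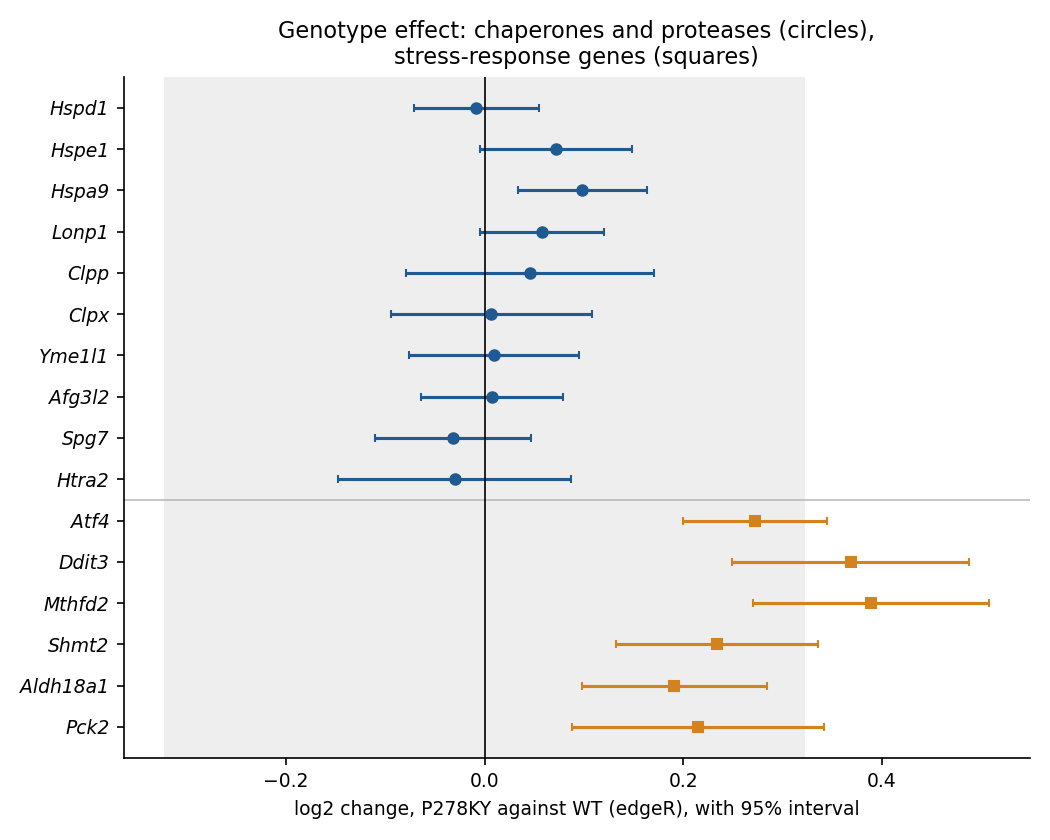
The log2 change of P278KY against WT (horizontal axis) with its 95% interval for the 10 members (circles) and for Atf4, Ddit3, Mthfd2, Shmt2, Aldh18a1 and Pck2 (squares), with the grey band from 20% lower to 25% higher. Every member interval lies inside the band, and the intervals of all members but Hspa9 cross 0. The squares are all genes higher in P278KY, picked from lists chosen with earlier results of these data known, so their contrast with the members is not a test. Other genes of those lists are not drawn, among them Fgf21 (7.36), Hsf1 (0.02) and Ubl5 (-0.08).

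On the TPM scale the picture shifts upward for most genes. There Hspa9 was at 138.1 to 150.2 TPM in WT and 155.5 to 166.5 TPM in P278KY, groups that did not overlap (1 member, against 5.32% of all genes). By limma on log2(TPM + 1), Hspa9 (0.17, adjusted p = 0.00854), Hspe1 (0.15, adjusted p = 0.0230) and Lonp1 (0.13, adjusted p = 0.0409) passed, so 3 of 10 members were called, against 8.93% of all genes. On that scale the median over all genes was 0.06, and 84.6% of the genes called were higher, against 44.5% by edgeR on counts. The share of TPM held by the mitochondrially encoded genes was 20.99% ± 0.583 in WT and 19.4% ± 1.29 in P278KY (SD, n = 6 each), 1.59 points lower by a comparison chosen after the values were seen (two-sided exact permutation within sex, p = 0.025, where the smallest possible is 0.005). With these genes removed from TPM, the median over all genes was still 0.04, and 72.3% of the genes called were higher. Only Hspa9 passed there (0.14, adjusted p = 0.0242 by limma, 5.52% of all genes called). With TPM rescaled by the trimmed mean of M values (TMM), the median over all genes was -0.0014 and the 3 changes were 0.10, 0.07 and 0.06. There 0 members passed (3.59% of all genes called), and the adjusted p of Hspa9 was 0.106 by limma.

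The ratio of the chaperonin partners differed between genotypes although neither partner passed alone by edgeR. The TPM ratio of Hspd1 to Hspe1 was 1.068, 1.157 and 1.073 in WT females 1, 2 and 10 and 1.112, 1.096 and 1.082 in WT males 5, 11 and 12. In P278KY it was 1.026, 1.022 and 1.055 in females 3, 4 and 9 and 1.051, 1.023 and 1.040 in males 6, 7 and 8. Every mutant lay below every WT mouse. How often ratios beyond the 3 examined separate the genotypes in this way was not examined. Single genes did not overlap on TPM for 5.32% of all tested genes. The mean ratio of Hspd1 to Hspe1 fell from 1.098 ± 0.033 to 1.036 ± 0.015 (SD, n = 6 each), a log2 difference of -0.08. The two-sided exact permutation test within sex over 400 relabellings gave p = 0.005, the smallest it allows, and 0.015 after adjustment over the 3 ratios examined. The ratio of expected counts differed alike (-0.08, adjusted p = 0.015 by the same exact permutation test), and leaving out each mouse in turn gave -0.09 to -0.06. Without mice 1 to 4 the log2 difference was -0.05 and without mice 7, 10 and 11 it was -0.09, in designs whose smallest exact p is 0.05 and 0.0167 before adjustment, values that both reached. Fragment length, read as transcript length less effective length, was 137.9 to 146.2 bases in WT and 136.6 to 147.2 bases in P278KY, so it overlapped. Hspd1 and Hspe1 overlap on opposite strands, from 55088132 to 55088243 on chromosome 1. Reads of that stretch could be assigned to either gene if the counting did not use the strand. The part of this in the ratio was not tested.

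The other partner ratios did not differ beyond their spread. Clpx to Clpp was 0.579 ± 0.051 in WT and 0.551 ± 0.059 in P278KY (SD, n = 6 each; exact permutation p = 0.33, adjusted 0.495). Spg7 to Afg3l2 was 0.964 ± 0.062 and 0.959 ± 0.068 (SD, n = 6 each; exact permutation p = 0.87, adjusted 0.87). The transcript length that enters TPM varied between mice for Clpx, from 2360 to 2876 bases, and for Spg7, from 1897 to 2230 bases.

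**Figure D4:**
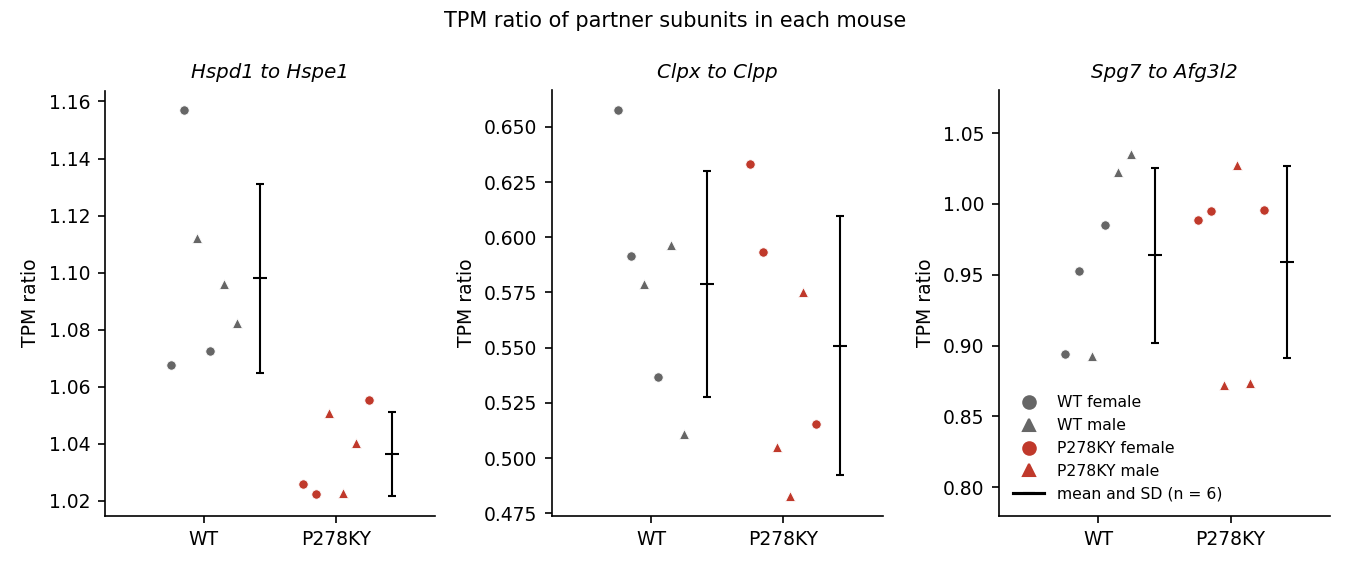
TPM ratio of Hspd1 to Hspe1, Clpx to Clpp and Spg7 to Afg3l2 in each mouse (vertical axes do not start at 0), with colours, symbols and bars as for the CPM values. In the left panel the 6 P278KY mice, at 1.022 to 1.055, all lie below the 6 WT mice, at 1.068 to 1.157, while the other panels overlap.

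Partners were also compared between mice after removing the group means. For Hspd1 and Hspe1 over 12 mice, Pearson r was 0.70 (exact permutation p = 0.115, adjusted over 3 pairs 0.296) and Spearman rho 0.71 (p = 0.0494, adjusted 0.126). Without P278KY females 3 and 4, r was 0.52. For Clpx and Clpp r was 0.35 and rho 0.52 (exact permutation p = 0.198 and 0.0841, adjusted 0.296 and 0.126), and r was 0.65 without the same 2 mice. For Spg7 and Afg3l2 r was 0.41 and rho 0.45 (exact permutation p = 0.361 and 0.326, both unchanged by adjustment), and r was 0.78 without WT male 5 and P278KY female 4. None passed. Of 10649 genes with a mean of at least 10 CPM, those most like Hspd1 by the same measure over 12 mice were Eif4g2 (r = 0.94), Ppm1b (0.94) and Gtpbp4 (0.93), and those most like Lonp1 were Wscd2 (0.96), Nav1 (0.93) and Radil (0.92). These are the highest values among 10649 genes in 12 mice, where high values also arise by chance, and they were not tested.

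Sex made no difference that passed. By edgeR 0 members were called for sex, against 0.089% of all genes (16), and the largest log2 difference was 0.06 for Yme1l1 (smallest adjusted p of any member 0.671). DESeq2 also called 0, and 0 had an unadjusted p under 0.05 by either tool, against 1609 of all genes by edgeR and 1615 by DESeq2. The genotype effect did not differ between sexes by the interaction test for any member (smallest adjusted p = 0.9999 by edgeR), against 0.0% of all genes. At an unadjusted p under 0.05 edgeR had 0 members and 665 of all genes, and DESeq2 called 61 of all genes and 0 members. Within females 0 members were called (0.573% of all genes; smallest adjusted p 0.536 by edgeR) and within males 0 (1.55% of all genes; smallest adjusted p 0.212, Hspa9), with 0 and 1 members (Hspa9) at an unadjusted p under 0.05. Over all 17980 genes, 2223 and 2571 were under that limit by edgeR.

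Several genes that signal stress rose in the same libraries. Of 12 stress signalling genes, 4 rose and 0 fell by edgeR, against 5.32% of all tested genes called. By sign 9 were higher and 3 lower, with a list median log2 change of 0.25. The list was chosen with earlier results of these data known, so its direction is not independent evidence. Fgf21, a hormone secreted in mitochondrial and amino acid stress, had 5 counts over the 6 WT mice and 1024 over the 6 P278KY mice (0.029 and 5.36 CPM). Gdf15, a circulating stress cytokine, had 13 and 163 counts (0.075 and 0.839 CPM). Atf4, the central factor of the integrated stress response, rose from 80.3 ± 3.27 to 97.0 ± 4.59 CPM (SD, n = 6 each; log2 change 0.27, SE 0.034, adjusted p = 0.000621 by edgeR). Ddit3, which encodes CHOP, rose from 17.2 ± 1.62 to 22.2 ± 1.19 CPM (log2 change 0.37, SE 0.055, adjusted p = 0.00212 by edgeR). For each of these 4 genes every mutant was above every WT mouse. Atf5, the factor linked to mitochondrial unfolding, was at 32.5 ± 4.48 and 38.7 ± 3.40 CPM and did not pass (adjusted p = 0.0516 by edgeR). It passed by limma on log2(TPM + 1) (0.32, adjusted p = 0.0187), where 8.93% of all genes were called. Trib3 (1.02), Cebpb (0.24), Eif2ak1 (0.04), Hsf1 (0.02), Oma1 (-0.04), Dele1 (-0.08) and Ubl5 (-0.08) did not pass by edgeR. DESeq2 called 5 genes of the list, and without WT female 1 edgeR called 7. Without mice 1 to 4 the list had 5 calls by edgeR, and without mice 7, 10 and 11 it had 4.

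Some mitochondrial enzymes that are known targets of ATF4 also rose. Of 7 genes of one-carbon and proline metabolism, a list chosen in the same way, 3 rose and 0 fell by edgeR, with a list median of 0.23. Over all tested genes 5.32% were called. Mthfd2, a one-carbon enzyme of the matrix, rose from 18.1 ± 1.07 to 23.8 ± 1.77 CPM (log2 change 0.39, adjusted p = 0.00155 by edgeR). Shmt2, which splits serine to glycine in the matrix, rose from 20.1 ± 0.729 to 23.7 ± 1.49 CPM (0.23, adjusted p = 0.0121). Aldh18a1, the first enzyme of proline synthesis, rose from 24.96 ± 1.59 to 28.5 ± 1.42 CPM (0.19, adjusted p = 0.0217), a call lost without P278KY female 3, P278KY male 7, WT female 10 or WT male 11 (adjusted p up to 0.0644). Pck2 (0.21, adjusted p = 0.0527) and Pycr1 (0.51, adjusted p = 0.0590) did not pass by edgeR. By limma on log2(TPM + 1) Pck2 passed (0.27, adjusted p = 0.0179), where 8.93% of all genes were called. Without mice 1 to 4 there were 3 calls among the 7, and without mice 7, 10 and 11 there was 1, with 253 calls among all genes.

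The other mitochondrial quality control genes are read against the 5.32% of all tested genes called by edgeR, at which lists of this size hold few calls or none. Of 15 other chaperones and assembly factors, 0 passed by edgeR and the median log2 change was -0.05, with 12 lower by sign. Nearest was Dnlz, a partner of mortalin, at 32.4 ± 1.88 and 29.1 ± 1.28 CPM (adjusted p = 0.0783). Trap1, the mitochondrial HSP90, was at 68.85 ± 3.01 and 66.1 ± 2.32 CPM (adjusted p = 0.410). Of 16 other proteases, 0 passed and the median was -0.04. Nearest was Pitrm1, which degrades cleaved presequences, at 34.7 ± 1.29 and 31.9 ± 1.5 CPM (adjusted p = 0.0989). Of 27 import genes, 0 passed and the median was -0.04, with 19 lower by sign. Nearest was Tomm7, at 35.9 ± 1.27 and 33.6 ± 1.09 CPM (adjusted p = 0.111). Tomm20, a receptor of the outer membrane, followed at 265.2 ± 19.7 and 292.0 ± 11.8 CPM (adjusted p = 0.121). Of 12 biogenesis genes, 0 passed and the median was 0.02. At an unadjusted p under 0.05 these 4 lists had 2, 2, 5 and 0 genes by edgeR, against 3637 of all 17980 genes. DESeq2 called 1 of the 15 other chaperones and 0 of the rest. By limma on log2(TPM + 1) the medians were 0.03, 0.04, 0.05 and 0.09 beside 0.06 over all genes, so the sign of the first 3 depends on the scale, and 2 of the 27 import genes, Tomm20 (0.21) and Timm44 (0.16), passed as higher, against 8.93% of all genes called on that scale.

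Among 14 mitophagy and dynamics genes edgeR called 1, against 5.32% of all tested genes. This was Bnip3, a mitophagy receptor. It fell from 94.0 ± 2.42 to 86.2 ± 2.53 CPM (SD, n = 6 each; log2 change -0.12, adjusted p = 0.0234 by edgeR), and the call was lost without P278KY female 4, P278KY male 6, WT female 10 or WT male 12 (adjusted p up to 0.0668), and in 7 of 13 other settings (up to 0.348). On log2(TPM + 1) Bnip3 did not pass, and 13 of the 14 were higher by sign, with a list median of 0.05 beside 0.06 over all genes. The 1 gene called there by limma was Dnm1l, which drives mitochondrial fission (0.13, adjusted p = 0.0327), against 8.93% of all genes. Dnm1l was named after its value was seen. All 13 mitochondrially encoded genes were lower by sign, with a median of -0.19, and also on the TPM scale, with a median of -0.12. Of these, mt-Nd4l (-0.23, adjusted p = 0.0289) and mt-Nd2 (-0.29, adjusted p = 0.0368), subunits of complex I, passed by edgeR. Their number called ranged from 0 to 6 when 1 mouse was left out, with 0 without any of P278KY female 4, WT male 5, P278KY male 6, P278KY male 7, WT male 11 or WT male 12, and was 10 by DESeq2.

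Among chaperones of the other compartments, more genes were lower than higher by sign on counts. Of 20 cytosolic chaperones, 0 rose and 2 fell by edgeR, against 5.32% of all tested genes called, with 13 lower by sign. At an unadjusted p under 0.05 there were 6, against 3637 of all 17980 genes. DESeq2 called 4, all lower, against 8.99% of all genes. Cryab, a small heat shock protein, fell from 237.9 ± 20.05 to 179.9 ± 22.3 CPM (SD, n = 6 each; log2 change -0.41, adjusted p = 0.000547 by edgeR), and Bag3, a cochaperone of selective autophagy and target of HSF1, fell from 45.0 ± 4.25 to 33.9 ± 2.65 CPM (-0.41, adjusted p = 0.00180). Of 16 chaperones and related genes of the endoplasmic reticulum, 1 rose and 3 fell by edgeR, with a median of -0.10 and 15 lower by sign. At an unadjusted p under 0.05 there were 7 by edgeR, and DESeq2 called 1 higher and 5 lower. Herpud1, a component of degradation from the endoplasmic reticulum, rose from 55.2 ± 3.68 to 65.8 ± 4.76 CPM (0.26, adjusted p = 0.0171 by edgeR). The folding enzymes P4hb (-0.14, adjusted p = 0.00619) and Pdia3 (-0.12, adjusted p = 0.0408) and the chaperone Hsp90b1 (-0.15, adjusted p = 0.0454) fell by edgeR. By limma on log2(TPM + 1) none of these 3 passed, and 8 of the 20 cytosolic and 12 of the 16 reticulum genes were lower by sign. On that scale Cryab and Bag3 passed as lower and Herpud1 as higher, against 8.93% of all genes called. The cytosolic chaperone Tcp1, named after its value was seen, also passed there as higher (0.15, adjusted p = 0.0167 by limma). Pdia3 and Hsp90b1 were also lost without any of P278KY females 3 and 4, P278KY males 6, 7 and 8, WT female 10 or WT males 11 and 12, and Hsp90b1 also without WT male 5 (adjusted p up to 0.0947 and 0.106). Without mice 7, 10 and 11 there were 0 calls in the endoplasmic reticulum list, with 6 at an unadjusted p under 0.05 (2698 of all 18147 genes).

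**Figure D5:**
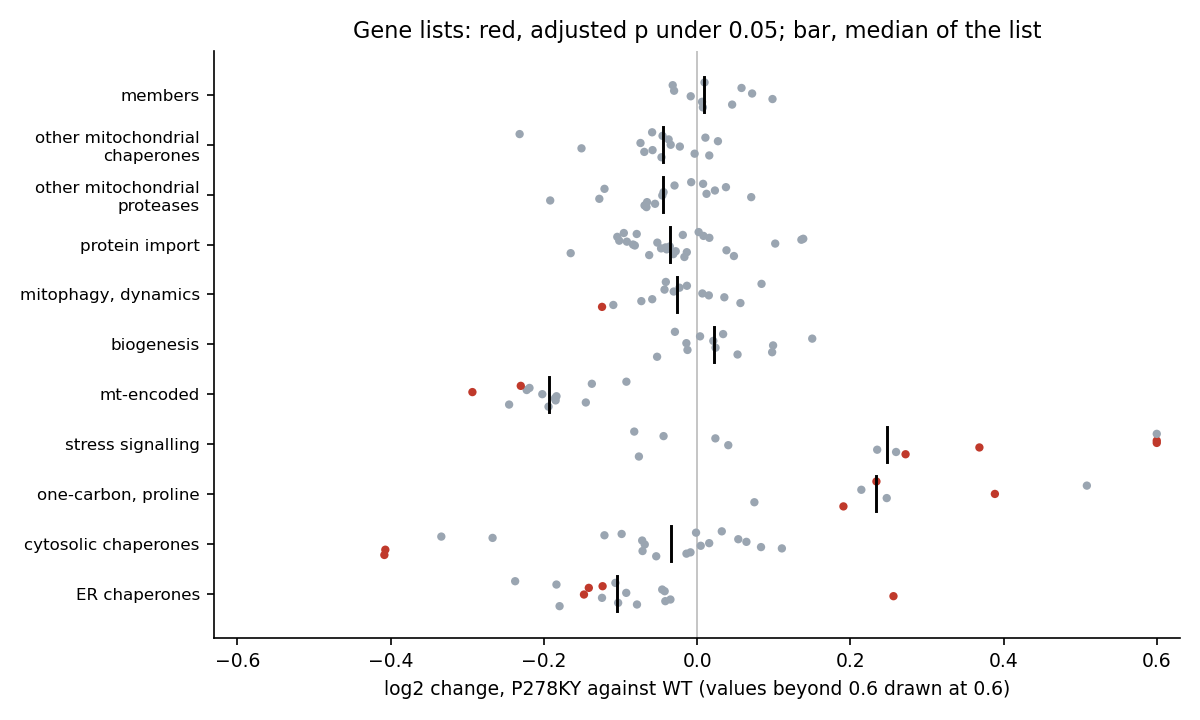
The log2 change of P278KY against WT for each gene (point) of each list, in red where the adjusted p was under 0.05, with the list median as a bar and values beyond 0.6 drawn at 0.6. The members centre on 0 with no red point, where 5.32% of all tested genes were called. Red points stand to the right in the stress signalling (4) and one-carbon and proline (3) lists, which were chosen with earlier results of these data known. They stand to the left for cytosolic chaperones (2), mitophagy and dynamics (1) and mt-encoded genes (2). For ER (endoplasmic reticulum) chaperones 3 stand to the left and 1 to the right.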

How the data were processed

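Polyadenylated RNA of 12 spinal cords was made into stranded libraries and read as 75 bp pairs, per the labels' protocols. Per the submitters' processing notes, the authors used Bowtie2 2.2.0 and RSEM 1.2.12. The sources used here do not name the genome build. The deposited expected counts estimate, per the file headers, how many reads came from each gene. The deposited TPM values are scaled by transcript length and library. The deposited FPKM values were not used.

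Expected counts were rounded, 17980 genes passed filterByExpr, libraries were scaled by TMM, and CPM refers to the scaled library. Genotype was tested with the robust quasi-likelihood F test of edgeR in a model of sex and genotype, adjusted by Benjamini-Hochberg over all tested genes, with a threshold of 0.05. The interaction and the effects within each sex came from a model of 4 group means. The fits ran in edgeR 4.0.16, DESeq2 1.42.0 and limma 3.58.1 under R 4.3.3. Only the edgeR genotype test of the model of sex and genotype was tried on simulated data. The limma fits used log2(TPM + 1) and log2(TPM + 0.1). Log2 CPM had a prior count of 2. Positions are from GENCODE M21 (GRCm38), which matched 37607 of 38924 genes. The members and lists were chosen with earlier results of these data known. All members are named, with the 4 smallest p values of each list and passing genes where at most 6 passed, though not every one of these is given. Other genes of the stress and one-carbon lists were named after their values were seen. Each library is a separate mouse, per the labels.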

Additional observations from a re-analysis of the deposited data

Results flagged for a closer look

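In 20 groups of 6 mice (each member in each genotype), a highest or lowest mouse stood apart by Dixon's ratio (limit 0.625) in 2, and chance flags about 1 group in 20. Clpx in P278KY was highest in female 3 at 38.9 CPM, against 33.7 CPM in the next mouse and 31.8 CPM in the lowest (ratio 0.730). Spg7 in P278KY was highest in female 4 at 52.6 CPM, against 49.8 CPM in the next and 48.5 CPM in the lowest (ratio 0.693). Both females are among the 4 mice with skeletal muscle markers at a mean log2 CPM of 6.19 or more, and the part of that in these values was not tested.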

How the results depend on the processing

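No paired analysis was possible because the mouse numbers are not shared between groups. The number of members called was 1 by DESeq2, 3 with log2(TPM + 1), 3 with log2(TPM + 0.1), 1 with TPM without mitochondrially encoded genes, and 0 to 1 without 1 mouse, while for sex and for the interaction it was 0 in every setting run. Over all genes the count was 542 to 1385 without 1 mouse, 1617 by DESeq2, 1606 and 1622 on the 2 TPM scales, 557 without mice 1 to 4 and 253 without mice 7, 10 and 11. The fixed lists together gave 11 to 22 calls without 1 mouse, 32 by DESeq2, 7 without mice 7, 10 and 11 and 10 with a term for mice 9 to 12. The stress list gave 4 to 7 and the one-carbon list 2 to 4 without 1 mouse, and the latter gave 5 by DESeq2 and 1 without mice 7, 10 and 11. The log2 ratio of Hspd1 to Hspe1 was -0.0513 without mice 1 to 4 (exact permutation p = 0.15 after adjustment) and -0.0865 without mice 7, 10 and 11 (adjusted 0.05). For each member the sign of the log2 change was that of the main value except as follows, and the cause was not tested. Hspd1 was 0.0631 with log2(TPM + 1), 0.0635 with log2(TPM + 0.1), 0.0347 without mitochondrially encoded genes, 0.000737 without mice 1 to 4, 0.00285 with muscle and ganglion covariates and -0.0276 to 0.00563 without 1 mouse. Clpx was -0.0234 with TMM-scaled TPM, -0.0326 without mice 1 to 4, -0.00863 without mice 7, 10 and 11 and -0.037 to 0.023 without 1 mouse. Yme1l1 and Afg3l2 were -0.0272 and -0.0389 without mice 7, 10 and 11, -0.0179 and -0.0176 with a term for mice 9 to 12, and -0.011 to 0.034 and -0.012 to 0.025 without 1 mouse. Spg7 was 0.0745, 0.0759 and 0.0466 on the 3 TPM scales without TMM and 0.000866 with it, and -0.054 to -0.019 without 1 mouse. Htra2 was 0.0406, 0.042 and 0.0131 on the 3 TPM scales without TMM and -0.055 to 0.012 without 1 mouse. The log2 ratio of Spg7 to Afg3l2 was -0.047 to 0.012 without 1 mouse. Counting error limits Htra2 most (CV of 4.05% at its median count).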
